A study of Mus musculus with 10 samples.

Results

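The 38 genes described here encode the proteins that take up glucose and break it down to lactate, and the proteins that sense low oxygen or are made in answer to it. They were chosen by name, from textbook membership of glycolysis and of the hypoxia response, and not by their values, though with earlier results of these data known. Each gene was represented by 1 probe, the one with the highest mean signal in the red channel over all arrays, and its log2 ratio was read from the normalized table that the authors deposited. All 38 were found among the 19200 named genes of the array, and all 38 probes were well above background in every tumor. Pkm is listed on the array under its older name Pkm2. The probe for Gapdh carries only a gene number in its name and was dim, with a mean red signal of 177, and near-identical copies of this gene exist, so its values are uncertain.

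Glycolysis converts glucose to pyruvate in the cytosol, and lactate dehydrogenase turns pyruvate into lactate so that the pathway can run without oxygen. When oxygen is scarce, the prolyl hydroxylases encoded by the Egln genes no longer mark the HIF alpha subunits for destruction, and HIF then switches on transporters, glycolytic enzymes and other targets such as the vessel growth factor Vegfa. Many tumors use glucose heavily even where oxygen is present. Carbonic anhydrase 9, encoded by Car9, is commonly used as a tissue marker of hypoxia in tumors.

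RNA from 10 mouse tumors was hybridised to Agilent 2-colour mouse arrays, 1 array per tumor, to compare metastatic sarcomatoid (spindle cell) carcinomas with adenocarcinomas of the mammary gland. The 5 sarcomatoid samples were the mammary tumors 323, 307 and 594 and lung tumors carrying the numbers 323 and 307 (here 323 lung and 307 lung), and the 5 adenocarcinomas were the mammary tumors 105, 131, 470, 17 and 85. Tumor 594 is labelled sarcomatoid carcinoma and the other 4 sarcomatoid adenocarcinoma. According to the methods, the sarcomatoid mammary tumors arose in MMTV-Cre mice that carried both Pik3ca H1047R and Trp53 R270H, Pik3ca H1047R with a Trp53 R245H mutation gained by the tumor, and Trp53 R270H without the Pik3ca allele. The lung tumors grew after cell lines made from the first 2 of these were injected into the tail vein, and all 5 adenocarcinomas carried Pik3ca H1047R and Trp53 R270H with MMTV-Cre. The labels do not say which of tumors 323 and 307 had which genotype. Cre was driven by the mouse mammary tumor virus promoter, the double mutants were on a C57BL/6 background, and ages are not given in the sources used here. The sarcomatoid group therefore held 3 separate origins in 5 samples, and its genotypes differed from those of the adenocarcinomas as well as from each other, and the part of genotype in the results was not tested.

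A positive log2 ratio is read here as more RNA in the tumor than in a common reference. The labels name Cy3, the green dye, for the tumors, but the green signal varied less between arrays than the red (mean SD over arrays 0.738 and 0.987 on the log2 scale), and the deposited ratios follow red over green. Every sign would turn if the label were right. Read as tumor over reference, Krt18 (-3.32), Epcam (-2.86) and Dsp (-3.53) had lower means in the sarcomatoid tumors than in the adenocarcinomas. Zeb2 (2.32), Mrc1 (1.71) and Itgam (1.61) had higher means. These are the directions the paper reports for its metastatic tumors, and the opposite sign would reverse each of them. The reading used here thus gives the paper's directions. The share of probes well above background in the red channel ran from 52.2% to 83.0%, lowest in tumor 85. Epithelial markers (12 genes) had a mean log2 ratio between 2.87 and 3.35 in 4 adenocarcinomas and -1.52 in tumor 470, whose mesenchymal markers (10 genes) stood at 1.09, against -1.91 to -0.32 in the other 4. Tumor 470 thus stands apart from the other adenocarcinomas, and counts are also given without it. The lung tumors had lower epithelial markers than the mammary sarcomatoid tumors (-1.62 and -2.47 against 0.80 to 1.59). Markers of lung epithelium (8 genes) stood at 0.38 and 0.86 in the lung tumors, within the range of the mammary tumors (-0.04 to 1.06). Only 1 of the 8 was well above background on every array, so they cannot show whether lung tissue was present. The arrays had been read with 3 versions of the feature extraction protocol, 1 used for tumor 323 alone, 1 for tumors 307, 594, 105 and 470, and 1 for 323 lung, 307 lung, 131, 17 and 85, so that the latter 2 held both groups and differences are also given within them. In the last, both sarcomatoid samples were lung tumors. In the one before, both were mammary, and tumor 470 was among the adenocarcinomas. Where these 2 versions differ, version, site and the tumors in each cannot be told apart. In tissue RNA, fewer cells of a type and less RNA per cell cannot be told apart.

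HIF binds DNA at a short core, ACGTG or GCGTG, and the stretch around the transcription start was searched for it on both strands, where it also reads CACGT or CACGC. A window of 250 bases before to 50 after a RefSeq start (build GRCm38.p6) was given for 35 of the 38 genes, all but Slc2a3, Epas1 and Ndrg1. Of these 35 genes, 31 (88.6%) held the core in at least 1 window, against 46.7% of all 27025 genes with a window. By window, 39 of 49 (79.6%) held it, against 43.8% of 32851. The windows of these genes were richer in G and C (median 62.0% against 52.7%), and this was not matched, so the higher share is a description only. The core lies inside the E-box CACGTG, which 12.2% of the genes' windows and 7.2% of all windows held. Printed on the gene's own strand from 5′ to 3′, with the core in capitals, are the windows of Slc2a1, Pdk1 and Car9, which had lower ratios in both lung tumors, Eno2, which had higher ratios there and whose window holds no core, and Ldha, whose window holds the most cores, 5 after overlapping matches were joined. The Slc2a1 window is chr4:119108495-119108794 on the plus strand, that of Pdk1 is chr2:71872974-71873273 on the plus strand, and that of Car9 is chr4:43506776-43507075 on the plus strand. The Eno2 window is chr6:124769624-124769923 on the minus strand and that of Ldha chr7:46845554-46845853 on the plus strand.
Slc2a1: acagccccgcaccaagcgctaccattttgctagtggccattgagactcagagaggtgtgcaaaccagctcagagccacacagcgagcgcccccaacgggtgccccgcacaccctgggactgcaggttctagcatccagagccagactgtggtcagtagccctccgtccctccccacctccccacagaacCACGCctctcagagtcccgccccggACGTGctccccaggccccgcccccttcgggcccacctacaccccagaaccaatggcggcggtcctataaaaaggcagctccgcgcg
Pdk1: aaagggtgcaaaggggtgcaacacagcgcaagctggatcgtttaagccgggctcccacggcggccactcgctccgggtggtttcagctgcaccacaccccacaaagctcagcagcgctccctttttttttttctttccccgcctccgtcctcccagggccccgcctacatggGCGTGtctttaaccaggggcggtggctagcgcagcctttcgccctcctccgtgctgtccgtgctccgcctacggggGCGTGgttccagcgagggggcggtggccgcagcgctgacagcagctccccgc
Car9: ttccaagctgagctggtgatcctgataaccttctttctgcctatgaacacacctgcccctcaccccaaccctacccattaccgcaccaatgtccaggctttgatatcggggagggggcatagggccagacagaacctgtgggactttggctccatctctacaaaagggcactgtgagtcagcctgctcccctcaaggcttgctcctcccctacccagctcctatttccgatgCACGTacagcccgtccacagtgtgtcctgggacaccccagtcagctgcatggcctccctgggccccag
Eno2: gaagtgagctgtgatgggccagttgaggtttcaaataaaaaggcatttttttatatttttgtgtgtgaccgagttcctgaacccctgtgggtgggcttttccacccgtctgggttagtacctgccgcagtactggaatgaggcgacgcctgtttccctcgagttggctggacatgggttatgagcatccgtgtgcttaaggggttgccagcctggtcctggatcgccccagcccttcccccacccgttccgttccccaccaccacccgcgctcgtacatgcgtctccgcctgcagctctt
Ldha: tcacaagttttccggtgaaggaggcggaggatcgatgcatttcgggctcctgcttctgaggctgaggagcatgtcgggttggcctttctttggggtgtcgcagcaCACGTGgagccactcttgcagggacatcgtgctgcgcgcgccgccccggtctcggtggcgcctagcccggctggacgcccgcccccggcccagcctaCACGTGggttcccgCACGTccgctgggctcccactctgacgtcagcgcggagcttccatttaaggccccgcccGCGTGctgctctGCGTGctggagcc
The Slc2a1 and Pdk1 windows hold 2 cores each and the Car9 window holds 1. Where a gene has several windows, the one with the most cores is printed: a second window of Pdk1, at chr2:71874654-71874953, holds 0 cores and a second window of Ldha, at chr7:46846832-46847131, holds 2. A match to these letters was not tested as a site of HIF binding. Of the genes higher in both lung tumors than in the mammary tumor of the same number, Eno1, Ddit4, Aldoa and Ldhb hold a core. Eno2 and Gpi1 hold none, and Epas1 has no window. Of those lower in both, Car12 holds none, and all others with a window hold at least 1. Whether cores go with the direction of the ratios was not tested.

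Across the tumors, most of the 38 genes stood below the reference. The mean log2 ratio over the 38 genes was -1.06 in tumor 323, -0.90 in 323 lung, -0.58 in 307, -1.23 in 307 lung and -0.94 in 594. Among the adenocarcinomas it was -0.75 in tumor 105, -0.52 in 131, -0.61 in 470, -0.60 in 17 and 0.06 in 85. The ranges overlap only through tumor 307, the sarcomatoid tumor with the highest mean, and 85 was the one tumor above the reference. Tumor 307 lung had the lowest value of all 10 for 11 genes, tumor 323 for 8 and tumor 105 for 7, while tumor 85 had the highest value for 11 genes and tumor 131 for 7. Eno1 and Eno2, which encode enolases, stood farthest below the reference, and Epas1, which encodes the HIF-2 alpha subunit, farthest above it. The adenocarcinomas varied more than the sarcomatoid tumors: the SD within the group was larger in the adenocarcinomas for 26 of the 38 genes, with a median of 0.73 against 0.52, where the medians over all 40196 probes were 0.54 and 0.50.

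**Figure D1:**
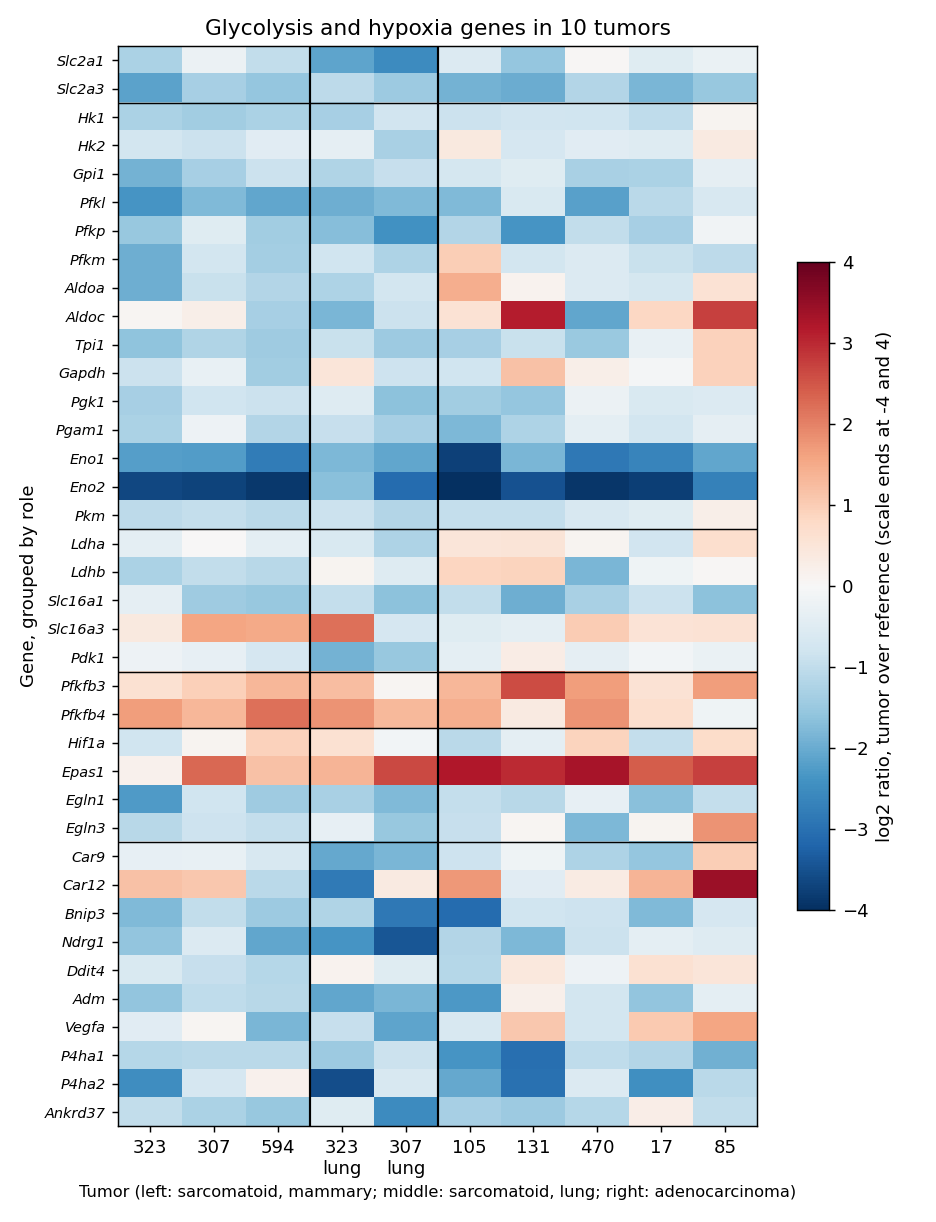
Log2 ratio of tumor over reference for the 38 genes (rows, grouped by role from glucose transport at the top to hypoxia targets at the bottom) in the 10 tumors (columns), in blue below and in red above the reference, with the colour scale ending at -4 and 4. Blue prevails in the sarcomatoid columns, the Eno1 and Eno2 rows are dark blue in most tumors, and tumor 85 has the most red cells among the glycolytic enzymes.

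Between sarcomatoid tumors and adenocarcinomas, 29 of the 38 genes (76.3%) had a lower mean in the sarcomatoid group, against 50.2% of all probes, and their median log2 difference was -0.55, against -0.0017 over all probes. No gene of the 38 passed the test, which was limma with Benjamini-Hochberg adjustment over 40196 probes and a threshold of 0.05: their adjusted p ran from 0.378 to 0.964. No probe of the array passed either (0%). At an unadjusted p below 0.05, 5 genes (13.2%) had a lower mean in the sarcomatoid tumors, namely Aldoa, Epas1, Vegfa, Pfkl and Ldha, against 4.25% of all probes. Pfkfb4 alone (2.63%) had a higher mean at that threshold, against 4.98% of all probes. The share of lower genes was thus above the background. That of higher genes rests on 1 gene, too few to be told apart from the background. Since all 38 were measured in the same tumors, they are not independent of each other. Without tumor 470, 618 probes of the array passed the adjusted threshold but still none of the 38 genes, of which 8 (21.1%) were then lower and 2 (5.26%) higher at an unadjusted p below 0.05, against 6.72% and 7.46% of all probes. With the 3 mammary sarcomatoid tumors alone, 3 (7.89%) were lower and 0 higher, against 3.41% and 4.56% of all probes. Within the protocol version of tumors 307, 594, 105 and 470, 21 of the 38 genes were lower in the sarcomatoid tumors (median -0.11), against 41.4% of all probes. Within the version of the lung tumors with 131, 17 and 85 it was 29 genes (median -0.70), against 50.7%. The sign was opposite in the 2 versions for 10 genes, namely Pfkl, Pfkp, Aldoc, Tpi1, Pgam1, Slc16a1, Egln3, Car9, Bnip3 and Adm.

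**Figure D2:**
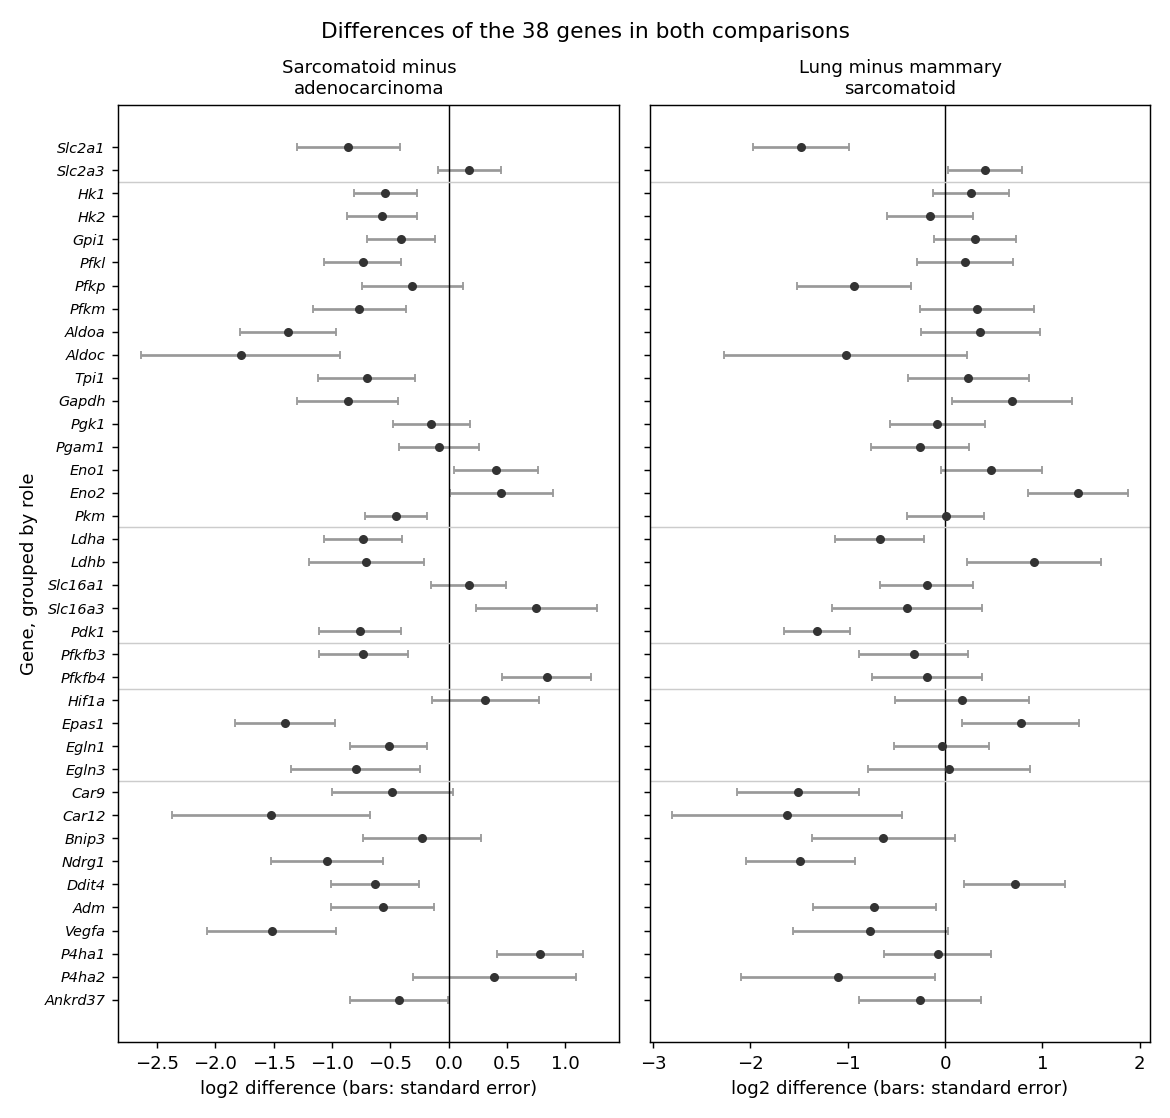
Log2 differences of the 38 genes with their standard errors from limma, sarcomatoid minus adenocarcinoma on the left (5 against 5 arrays) and lung minus mammary sarcomatoid on the right (2 against 3 arrays). On the left 29 of 38 points lie below 0, with Aldoc, Car12, Vegfa, Epas1 and Aldoa farthest down, and on the right the hypoxia targets at the bottom lie below 0 for 9 of 10 genes while the glycolytic enzymes do so for 5 of 15.

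Glucose enters cells through facilitative transporters, and the widely expressed one, GLUT1 encoded by Slc2a1, was lower on average in the sarcomatoid group, with a log2 difference of -0.86 (SE 0.44, limma adjusted p = 0.583). Slc2a3, which encodes the high-affinity transporter GLUT3, differed by 0.18 (SE 0.27). In the sarcomatoid tumors Slc2a1 stood at -1.28 in tumor 323, -2.12 in 323 lung, -0.25 in 307, -2.51 in 307 lung and -0.98 in 594. Among the adenocarcinomas it stood at -0.56 in tumor 105, -1.56 in 131, 0.06 in 470, -0.49 in 17 and -0.27 in 85. The lung tumors were the lowest of the 10, and the 3 mammary sarcomatoid tumors lay within the range of the adenocarcinomas.

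Of the 15 glycolytic enzymes, 13 had a lower mean in the sarcomatoid tumors (median difference -0.54), and only the enolases Eno1 (0.41, SE 0.36) and Eno2 (0.45, SE 0.44) a higher one. Aldoa, the aldolase that splits fructose 1,6-bisphosphate in most tissues and the abundant form in muscle, was the one gene of the 38 whose groups did not overlap, lower in the sarcomatoid tumors; 0.468% of all probes were lower without overlap, and 0.866% were higher without overlap, none of them among the 38. Its probe lies at chr7:122891843-122891902 (mm7). The log2 ratio of Aldoa was -1.96 in tumor 323, -1.22 in 323 lung, -0.89 in 307, -0.73 in 307 lung and -1.16 in 594. In the adenocarcinomas it was 1.44 in tumor 105, 0.15 in 131, -0.54 in 470, -0.71 in 17 and 0.59 in 85. All sarcomatoid values lay below all adenocarcinoma values, with 307 lung and tumor 17 almost touching. The means were -1.19 ± 0.47 and 0.19 ± 0.88 (SD, n = 5 each), a 2.60-fold lower level (log2 difference -1.38, SE 0.41, limma adjusted p = 0.378). An exact permutation test over the 10 arrays gave p = 0.00794, the smallest it can give, and p = 0.0357 over the 8 tumor numbers. A second Aldoa probe, nearly as bright, gave -1.17, and the difference was -1.48 and -0.98 within the protocol versions that held both groups.

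Skeletal muscle lies next to the mammary fat pad, and muscle transcripts were high in some of these tumors. The 12 muscle markers had a mean log2 ratio of 4.98 in tumor 105, 3.53 in 470 and 2.90 in 594, and between -1.55 and 0.90 in the other 7; only 4 of the 12 were well above background on every array. All 12 had a lower mean in the sarcomatoid group (median -0.90), none at an unadjusted p below 0.05. Tumor 105 also had the highest Aldoa and the highest Pfkm, the muscle form of phosphofructokinase, at 0.98. Pfkm was at -0.56 in tumor 470, the highest after 105, and at -1.36 in 594, the lowest after 323. Of the wider glycolysis genes described below, Pgam2 stood at 3.25, 0.40 and -0.85 in tumors 105, 470 and 594, against -5.12 to -2.36 in the other 7. Eno3 stood at 2.64, -0.67 and -0.85 in these, against -3.77 to 0.21 in the other 7. Without tumor 105 the Aldoa difference was -1.07. The part of muscle in the Aldoa and Pfkm differences was not tested.

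Pfkl encodes the liver form of phosphofructokinase, which catalyses the committed step of glycolysis. Its log2 ratio (probe at chr10:77642785-77642844, mm7) was -2.36 in tumor 323, -1.94 in 323 lung, -1.77 in 307, -1.78 in 307 lung and -2.07 in 594. Among the adenocarcinomas it was -1.75 in tumor 105, -0.60 in 131, -2.16 in 470, -1.07 in 17 and -0.65 in 85. The sarcomatoid tumors were close together, and tumors 105 and 470 lay among or near them while the other 3 adenocarcinomas were clearly above. The difference was -0.74 (SE 0.33, limma adjusted p = 0.531), with an exact permutation p of 0.0794 over the arrays and 0.143 over the tumor numbers. The difference was 0.04 within the protocol version of tumors 307, 594, 105 and 470. It was -1.09 within that of the lung tumors with 131, 17 and 85. The direction of Pfkl thus did not hold within both. The other phosphofructokinase genes differed by -0.31 (Pfkp, the platelet form, SE 0.43) and -0.77 (Pfkm, SE 0.40).

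Aldoc, the brain form of aldolase, had the largest difference among the enzymes and also the widest spread. It stood at 0.09 in tumor 323, -1.84 in 323 lung, 0.22 in 307, -0.87 in 307 lung and -1.32 in 594. In the adenocarcinomas it ran from -2.08 in tumor 470 over 0.57 in 105 and 0.84 in 17 to 2.72 in 85 and 3.15 in 131. Tumors 131 and 85 were far above every other tumor and 470 was the lowest of all, so the groups overlap and the difference of -1.78 had an SE of 0.85 (limma adjusted p = 0.556). Within the protocol versions the difference was 0.20 and -3.59, so its direction did not hold within both. A dimmer second probe gave -1.14.

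The remaining enzymes differed less. The hexokinases Hk1 and Hk2, which trap glucose in the cell as glucose 6-phosphate, differed by -0.54 (SE 0.27) and -0.57 (SE 0.30). Gpi1 (glucose phosphate isomerase) differed by -0.41, Tpi1 (triosephosphate isomerase) by -0.70, Gapdh by -0.87, and Pkm, the pyruvate kinase of most tumors, by -0.45. Pgk1 and Pgam1, which encode phosphoglycerate kinase and mutase in the middle of the pathway, differed by only -0.15 (SE 0.33) and -0.08 (SE 0.34), within the spread of either group. None of these had an unadjusted limma p below 0.05, while the exact permutation test over the arrays gave 0.0397 for Hk1 and 0.0476 for Pkm, unadjusted. Over the 8 tumor numbers, with the lung and mammary tumors of one number averaged, the exact permutation p was 0.0714 for Hk1 and 0.161 for Pkm.

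**Figure D3:**
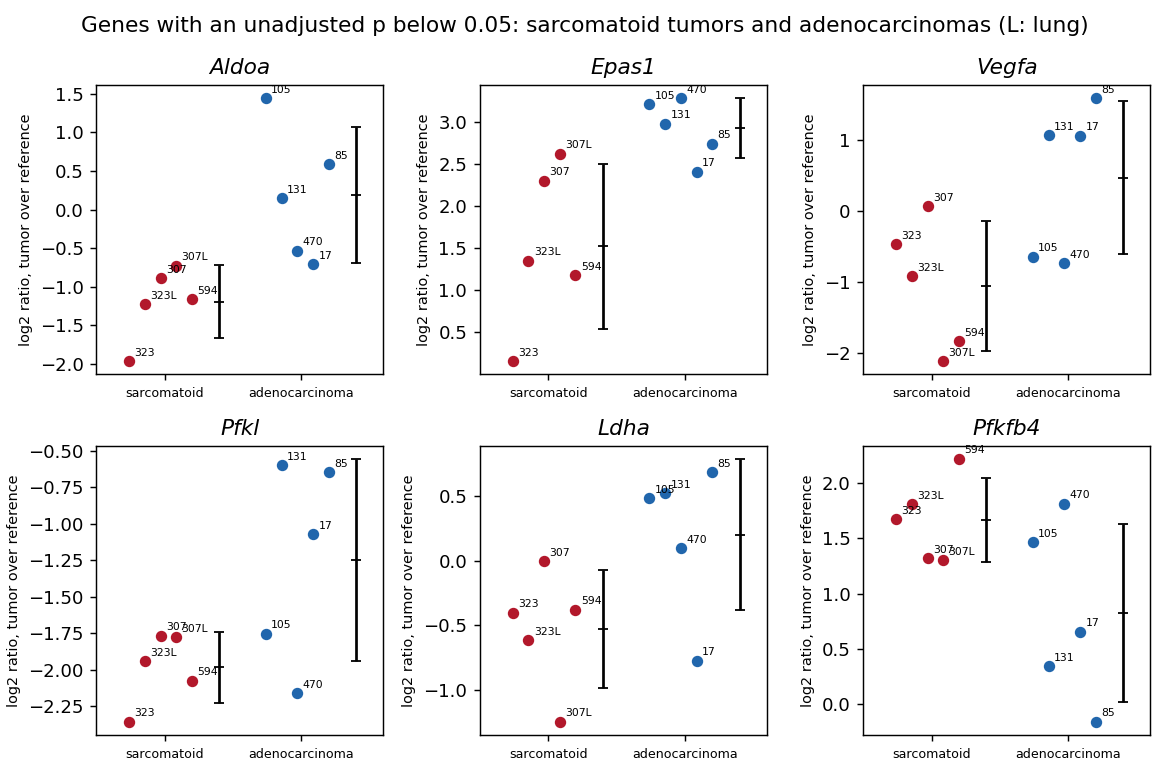
Log2 ratio (vertical axis) in every tumor for the genes with an unadjusted p below 0.05 between sarcomatoid tumors (red) and adenocarcinomas (blue), with the mean and SD (bar, n = 5) beside the points; L marks the lung tumors. Aldoa is the gene whose points do not overlap, Epas1 overlaps only through tumors 17 and 307 lung, and in Pfkl and Pfkfb4 tumors 105 and 470 lie with the sarcomatoid tumors.

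Pyruvate is turned to lactate, exported, or burned in mitochondria, and 3 of the 5 genes at this branch had a lower mean in the sarcomatoid tumors. Ldha, the lactate dehydrogenase subunit that favours lactate formation, stood at -0.40 in tumor 323, -0.61 in 323 lung, 0.00 in 307, -1.25 in 307 lung and -0.38 in 594 (probe at chr7:43031720-43031779, mm7). Its values in the adenocarcinomas were 0.48 in tumor 105, 0.52 in 131, 0.10 in 470, -0.77 in 17 and 0.69 in 85. Apart from tumor 17, every adenocarcinoma lay above every sarcomatoid tumor. The difference was -0.73 (SE 0.33, limma adjusted p = 0.540). The exact permutation p was 0.0635 over the arrays and 0.125 over the tumor numbers. The difference was -0.48 and -1.08 within the protocol versions, and a second bright probe gave -0.82.

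Ldhb, the subunit that favours the reverse reaction, differed by -0.71 (SE 0.49). Pdk1, the kinase that shuts pyruvate dehydrogenase and so keeps pyruvate out of mitochondria, differed by -0.76 (SE 0.35, limma adjusted p = 0.544), with its lowest values in the lung tumors. Within the protocol version that held no lung tumor, the Pdk1 difference was -0.12, and the exact permutation p was 0.0714 over the arrays and 0.0179 over the tumor numbers, the smallest the latter can give. The lactate transporters differed the other way on average, Slc16a1 (MCT1) by 0.17 and Slc16a3 (MCT4, the exporter of glycolytic cells) by 0.75 (SE 0.52). Slc16a3 was above the reference in 4 sarcomatoid tumors, from 0.40 to 2.20, and at -0.66 in 307 lung, against -0.48 to 1.0 in the adenocarcinomas.

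The bifunctional enzymes that set the level of fructose 2,6-bisphosphate, an activator of phosphofructokinase, differed in opposite directions. Pfkfb4 stood at 1.67 in tumor 323, 1.81 in 323 lung, 1.32 in 307, 1.30 in 307 lung and 2.22 in 594, and its probe lies at chr9:108742376-108742435 (mm7). In the adenocarcinomas it stood at 1.47 in tumor 105, 0.35 in 131, 1.81 in 470, 0.66 in 17 and -0.16 in 85. The sarcomatoid tumors were all well above the reference, as were tumors 105 and 470, while 131, 17 and 85 were lower. The difference was 0.84 (SE 0.38, limma adjusted p = 0.536), and it was 0.13 and 1.27 within the protocol versions. The exact permutation p was 0.0952 over the arrays and 0.143 over the tumor numbers. Pfkfb3 differed by -0.73 (SE 0.38).

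Among the oxygen-sensing genes, Epas1 had the largest difference. HIF-2 alpha is abundant in endothelial cells and is regulated mainly through the stability of the protein, which arrays do not measure. The ratio of Epas1 (probe at chr17:85101159-85101218, mm7) was 0.16 in tumor 323, 1.35 in 323 lung, 2.30 in 307, 2.63 in 307 lung and 1.18 in 594. The adenocarcinomas had 3.22 in tumor 105, 2.98 in 131, 3.29 in 470, 2.41 in 17 and 2.75 in 85. All 10 tumors were above the reference, the adenocarcinomas within a narrow range, and the groups overlapped only in that 307 lung exceeded tumor 17. The mean was 1.52 ± 0.98 in the sarcomatoid tumors and 2.93 ± 0.36 in the adenocarcinomas (SD, n = 5 each), 2.65-fold lower in the former (log2 difference -1.41, SE 0.43, limma adjusted p = 0.387). The exact permutation p was 0.0159 over the arrays and 0.0357 over the tumor numbers, and the difference was -1.51 and -0.73 within the protocol versions. A second Epas1 probe, well above background on only 6 arrays, gave 0.34, and the mean of both probes -0.53. Of 10 endothelial markers, 3 had a lower mean in the sarcomatoid tumors, and the median difference of the 10 was 0.11. Their mean level ran from 1.50 to 3.43 in the sarcomatoid tumors and from 1.82 to 3.33 in the adenocarcinomas. The part of endothelial cells in the Epas1 difference was not tested.

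Hif1a, the other alpha subunit, differed by 0.31 (SE 0.46), with tumors of both groups on either side of the reference. The hydroxylase genes Egln1 and Egln3, the latter itself a HIF target, differed by -0.51 (SE 0.33) and -0.80 (SE 0.55). Egln3 ranged from -1.79 in tumor 470 to 1.80 in tumor 85 among the adenocarcinomas and only from -1.51 to -0.34 in the sarcomatoid tumors.

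Of the 10 other hypoxia targets, 8 had a lower mean in the sarcomatoid tumors (median -0.53). Vegfa, the main growth factor for blood vessels, stood at -0.47 in tumor 323, -0.91 in 323 lung, 0.07 in 307, -2.11 in 307 lung and -1.83 in 594 (probe at chr17:44147967-44148026, mm7). It stood at -0.64 in tumor 105, 1.07 in 131, -0.73 in 470, 1.06 in 17 and 1.59 in 85. The adenocarcinomas split into 131, 17 and 85, above every sarcomatoid tumor, and 105 and 470, which lay among them. The difference was -1.52 (SE 0.55, limma adjusted p = 0.442), but within the protocol versions it was -0.19 and -2.75. The exact permutation p was 0.0556 over the arrays and 0.0536 over the tumor numbers. The other Vegfa probes gave -0.81 and -1.09.

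Car12, a membrane carbonic anhydrase, stood at 1.17 in tumor 323, -2.82 in 323 lung, 1.09 in 307, 0.37 in 307 lung and -1.07 in 594, and at 1.75 in tumor 105, -0.46 in 131, 0.31 in 470, 1.35 in 17 and 3.42 in 85. Tumors 323 lung and 85 were the extremes and the groups overlapped widely, with a difference of -1.53 (SE 0.85, limma adjusted p = 0.614). Ndrg1, a stress-induced gene often used in hypoxia signatures, differed by -1.04 (SE 0.48, limma adjusted p = 0.542), with its lowest values in the lung tumors. Smaller differences were seen for Car9 (-0.48), Ddit4, an inhibitor of mTORC1 (-0.64), Adm, the vasodilator adrenomedullin (-0.57), the mitophagy gene Bnip3 (-0.23) and Ankrd37 (-0.43). The collagen prolyl hydroxylase subunits had higher means in the sarcomatoid tumors, P4ha1 by 0.78 (SE 0.37, limma adjusted p = 0.550) and P4ha2 by 0.39 (SE 0.70). P4ha1 was tightly grouped in the sarcomatoid tumors, from -1.45 to -0.87, and wider in the adenocarcinomas, from -3.02 in tumor 131 to -1.01 in tumor 470.

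Markers of other cell types also had different means in the 2 groups, with no marker past the adjusted threshold. All 12 epithelial markers had a lower mean in the sarcomatoid tumors (median -2.29), all 10 mesenchymal markers a higher one (median 0.87), and all 10 myeloid markers a higher one (median 1.58, 9 at an unadjusted p below 0.05). The mean of the myeloid markers ran from 2.39 to 3.40 in the sarcomatoid tumors and from 0.29 to 2.77 in the adenocarcinomas, and that of the proliferation markers from -1.38 to -0.81 and from -1.68 to -0.42. The part of these cell types in the differences of the 38 genes was not tested.

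The lung tumors were compared with the mammary sarcomatoid tumors, since they were grown from cell lines of tumors 323 and 307. No gene of the 38 passed the adjusted threshold (limma adjusted p from 0.264 to 0.996), against 10 probes of the array, or 0.0249%. At an unadjusted p below 0.05, Slc2a1, Pdk1, Ndrg1 and Car9 (10.5%) had a lower mean in the lung tumors, against 5.1% of all probes, and Eno2 (2.63%) a higher one, against 5.59%. Of the 38 genes 22 (57.9%) had a lower mean in the lung tumors, against 48.4% of all probes, with a median difference of -0.12 against 0.03. The glycolytic enzymes and the hypoxia targets differed in their counts: 5 of 15 enzymes (median 0.24) and 9 of 10 targets (median -0.75) were lower in the lung, and whether these groups of genes differ was not tested. The lung tumors and the mammary sarcomatoid tumors had been read with different protocol versions, so no value within a version can be given, and values with the version as a term rest on the adenocarcinomas. This comparison shares the mammary and lung tumors with the former one and is not independent of it.

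Pdk1 had the smallest p of the 38 genes here, and its probe lies at chr2:71747473-71747532 (mm7). It stood at -1.90 in 323 lung and -1.52 in 307 lung, against -0.20 in tumor 323, -0.32 in 307 and -0.66 in 594. In the adenocarcinomas it stood at -0.38 in tumor 105, 0.29 in 131, -0.35 in 470, -0.10 in 17 and -0.25 in 85. Both lung tumors were therefore below all 8 mammary tumors, 3 of which share their histology. The difference was -1.31 (SE 0.34, limma adjusted p = 0.264), a 2.49-fold lower level, and -1.70 and -1.19 in the pairs of tumors 323 and 307. A second, somewhat dimmer Pdk1 probe gave a smaller difference of -0.66.

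For Slc2a1 (probe at chr4:118513698-118513757, mm7) the lung tumors, at -2.12 and -2.51, were likewise the lowest of all 10. The difference from the mammary sarcomatoid tumors was -1.48 (SE 0.49, limma adjusted p = 0.351), 2.79-fold lower, and it was larger in the pair of tumor 307 (-2.26) than in that of tumor 323 (-0.84). Tumor 131, the lowest adenocarcinoma at -1.56, was also lower than any mammary sarcomatoid tumor.

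Car9 stood at -2.06 in 323 lung and -1.83 in 307 lung, and at -0.34 in tumor 323, -0.30 in 307 and -0.65 in 594 (probe at chr4:43526965-43527024, mm7). The adenocarcinomas spread from -1.53 in tumor 17 over -1.24 in 470, -0.82 in 105 and -0.17 in 131 to 0.99 in 85. The mammary sarcomatoid tumors were close together and both lung tumors lay below every mammary tumor. The difference was -1.51 (SE 0.63, limma adjusted p = 0.440), 2.85-fold, and -1.71 and -1.53 in the pairs.

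Ndrg1 (probe at chr15:67013174-67013233, mm7) stood at -2.35 in 323 lung and -3.42 in 307 lung, against -1.59 in tumor 323, -0.53 in 307 and -2.08 in 594. In the adenocarcinomas it stood at -1.17 in tumor 105, -1.80 in 131, -0.87 in 470, -0.40 in 17 and -0.52 in 85. The lung tumors were again the lowest 2 of the 10, though 323 lung was only a little below tumor 594. The difference was -1.48 (SE 0.56, limma adjusted p = 0.400), with -0.76 and -2.89 in the pairs.

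Eno2, the neuronal enolase that is also induced by hypoxia, went the other way (probe at chr6:124786697-124786756, mm7). It stood at -1.68 in 323 lung and -3.07 in 307 lung, against -3.63 in tumor 323, -3.71 in 307 and -3.87 in 594. Its adenocarcinoma values were -4.32 in tumor 105, -3.49 in 131, -3.91 in 470, -3.77 in 17 and -2.71 in 85. All tumors were far below the reference, 323 lung least so, and 307 lung lay below tumor 85. The difference was 1.36 (SE 0.51, limma adjusted p = 0.400), a second probe gave 0.99, and with the protocol version as a term it was 0.63.

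**Figure D4:**
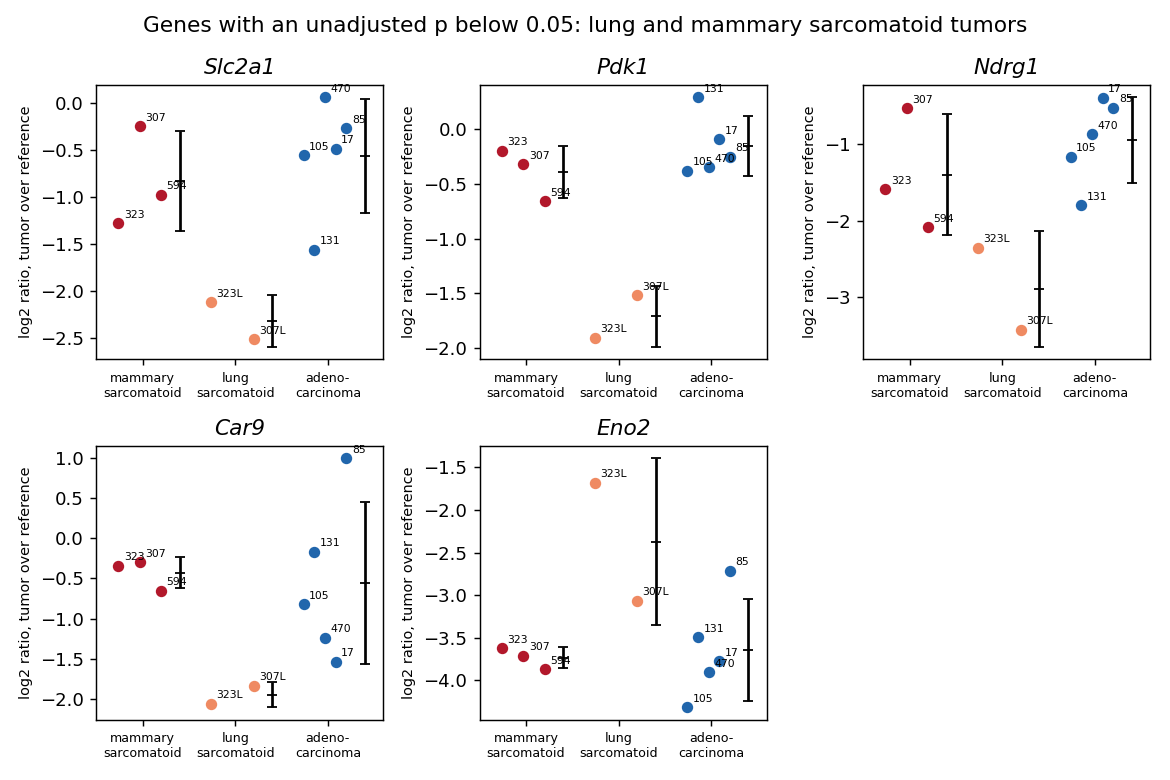
Log2 ratio (vertical axis) in every tumor for the genes with an unadjusted p below 0.05 between lung (orange, L) and mammary (dark red) sarcomatoid tumors, with the adenocarcinomas (blue) for reference; bars give the mean and SD (n = 3, 2 and 5 from left to right). Both lung tumors are the lowest of the 10 for Slc2a1, Pdk1, Ndrg1 and Car9, and for Eno2 they are above the mammary sarcomatoid tumors.

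The lung and mammary tumors of one number were also set side by side. In the pair of tumor 323, 14 genes were lower in the lung tumor (median 0.42, against 0.02 and 49.1% lower over all probes), and in that of tumor 307, 28 were (median -0.50, against -0.02 and 51.0% lower). Lower in both lung tumors were 11 genes, higher in both 7, and opposite in the pairs 20. Shares of all probes lower or higher in both pairs were not counted. These counts, and those by role that follow, thus have no background. Of the 10 hypoxia targets, 5 were lower in both and 1, Ddit4, higher in both, whereas of the 15 enzymes 2, Aldoc and Pfkp, were lower in both and 4 higher in both. The hydroxylase genes Egln1 and Egln3, Hif1a and the exporter Slc16a3 were among those that went opposite ways, Slc16a3 by 1.80 in the pair of 323 and by -2.24 in that of 307. P4ha2 stood at -3.55 in 323 lung and -0.63 in 307 lung, against -2.47, -0.67 and 0.16 in tumors 323, 307 and 594. In the adenocarcinomas P4ha2 stood at -2.05 in tumor 105, -2.98 in 131, -0.56 in 470, -2.45 in 17 and -1.08 in 85. Its mean difference was -1.10 (SE 1.0), with -1.08 in the pair of 323 and 0.04 in that of 307, so the lung and mammary values overlapped. Car12 differed by -1.62 (SE 1.18), with -3.99 in the pair of 323 and -0.72 in that of 307, and Aldoc by -1.02 (SE 1.25), with -1.93 and -1.09.

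**Figure D5:**
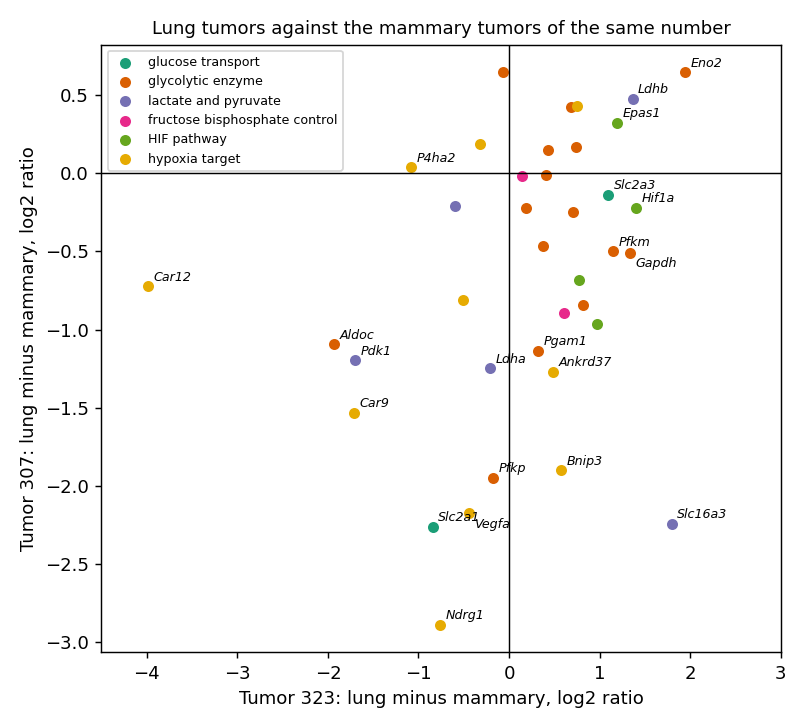
Log2 difference of lung minus mammary tumor for the 38 genes, in tumor 323 (horizontal axis) and in tumor 307 (vertical axis), coloured by role; genes past 1 in either pair are named. The 11 genes in the lower left are lower in both lung tumors, among them Ndrg1, Slc2a1, Vegfa, Car9, Pdk1, Aldoc and Car12, and the 7 in the upper right, with Eno2, Ldhb and Epas1, are higher in both.

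Markers of other cell types moved with this comparison too. All 12 epithelial markers had a lower mean in the lung tumors (median -3.40, 7 at an unadjusted p below 0.05), 6 of 7 T cell markers did (median -1.48, mean level -1.04 and -0.80 against 0.52 to 1.04, though only 2 of the 7 were well above background on every array), and 8 of 10 endothelial markers did (median -0.63, mean level 1.50 and 2.75 against 2.04 to 3.43). Of 10 myeloid markers, 5 had a lower and 5 a higher mean (median -0.09), none at an unadjusted p below 0.05. Proliferation markers had a median difference of -0.02. The part of these cell types in the values above was not tested.

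Genes of the surrounding pathways, taken from lists of names, were counted in the same way. Of 29 further genes of glycolysis and its branches, 3 were higher and 1 lower in the sarcomatoid tumors at an unadjusted p below 0.05 (median difference -0.10), where 4.98% of all probes were higher and 4.25% lower. The counts were 0 higher and 0 lower of 6 genes of the pentose phosphate pathway, 0 and 2 of 10 at the entry of pyruvate into mitochondria, 0 and 1 of 6 HIF regulators, and 0 and 5 of 35 other hypoxia-induced genes (median -0.17). None passed the adjusted threshold. Slc2a6, a member of the glucose transporter family found in spleen and leukocytes, had a higher mean in the sarcomatoid tumors (1.57, SE 0.40, limma adjusted p = 0.330) with no overlap: -0.75, 0.58, -0.70, 0.66 and 0.20 in tumors 323, 323 lung, 307, 307 lung and 594, against -2.47 in tumor 85 to -0.92 in tumor 470. Rora, a nuclear receptor, had a lower mean (-1.65, SE 0.41, limma adjusted p = 0.330), from -2.47 in 323 lung to -0.51 in 307 lung in the sarcomatoid tumors and from -0.28 in tumor 17 to 1.26 in tumor 131 in the adenocarcinomas, again with no overlap. Pyruvate carboxylase, Pcx, was lower without overlap too (-0.85), from -1.0 in 323 lung to -0.35 in 307 lung against -0.34 in tumors 131 and 470 to 0.95 in tumor 105, with the groups almost touching. Of all probes, 0.866% were higher and 0.468% lower without overlap. Next by p were Slc16a7 (MCT2, 1.36) and the ADP-dependent glucokinase Adpgk (0.66) among the higher genes, and among the lower ones Gpd1, glycerol 3-phosphate dehydrogenase (-2.24), and Ppp1r3c, which targets a phosphatase to glycogen (-2.10). The other genes in those counts, named after their values were seen, were the HIF inhibitor Hif1an (-0.88), Pcx, Pdk2 (-0.62), placental growth factor Pgf (-1.22), Bhlhe40 (-0.79) and the transferrin receptor Tfrc (-1.29), all lower. Gpd1 is abundant in adipose tissue, and the 9 adipocyte markers had a mean of 0.35 to 2.86 in the sarcomatoid tumors and 0.25 to 4.0 in the adenocarcinomas, highest in tumor 105, where Gpd1 was also highest at 4.49. Tumor 131 had Gpd1 at 4.14 with adipocyte markers at 0.83, whereas tumors 470 and 594 had Gpd1 at 0.28 and 0.96 with markers at 2.31 and 2.86. The part of adipocytes in the Gpd1 difference was not tested.

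In the lung tumors 4 of the 35 other hypoxia-induced genes had a lower mean at an unadjusted p below 0.05 and none a higher one (median -0.34), against 5.1% and 5.59% of all probes. Tmem45a stood at -4.31 and -5.32 in 323 lung and 307 lung against -2.72, -0.89 and -0.63 in tumors 323, 307 and 594 (difference -3.40, SE 1.09). Stc2, stanniocalcin 2, differed by -4.05 (SE 1.37), mostly through -8.46 in 307 lung, as 323 lung stood at -3.19 against -2.60 to -1.07 in the mammary tumors. Errfi1, a feedback inhibitor of EGFR, differed by -1.14 (SE 0.47), and the last of the 4, Zfp292, named after its value was seen, by -1.11. Of the pentose phosphate genes, which make NADPH and ribose from glucose 6-phosphate, 2 had a higher mean in the lung tumors and 1 a lower one. The former were H6pd, the enzyme of the endoplasmic reticulum (1.40, SE 0.46, limma adjusted p = 0.345), at 0.20 and 1.03 against -1.43 to -0.44, and the cytosolic G6pdx (0.92, SE 0.40, limma adjusted p = 0.458), while Rpe, named after its value was seen, differed by -0.92. Slc2a6 followed with 1.03 (SE 0.50). The glycolysis branch, pyruvate entry and HIF regulator lists had none in either direction.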

How the data were processed

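Expression was measured in 10 mouse tumors on Agilent mouse arrays with 2 channels. Per the file headers, the scanner files hold each spot's red and green intensity and their log10 ratio, from Agilent Feature Extraction; how the arrays were labelled beyond the dye is not given in the sources used here. The authors normalized the arrays with limma and deposited a table of log2 ratios of 40196 probes, with background correction and normalization steps not given in the sources used here. The control rows of the table (134) are not among these 40196 probes, and 978 probes of the array were not in the table. The table's columns had medians from -0.05 to 0.07, so they are close to centred on 0, and each column correlated best with its own array's red over green ratio (0.868 to 0.926 against at most 0.744 with another array). The number of arrays limits the precision.

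From these log2 ratios, sarcomatoid tumors (5) were compared with adenocarcinomas (5), and lung (2) with mammary (3) sarcomatoid tumors in a fit that also held the adenocarcinomas, with limma 3.58.1 (lmFit and eBayes, two-sided) in R 4.3.3 and Benjamini-Hochberg adjustment over all probes. Single genes were also tested with two-sided exact permutation tests. The labels do not say that mice differed between arrays other than by tumor number, so p-values measure the spread between these samples. Lung and mammary tumors of 1 number share a cell line's origin, by the methods, and their differences between tumors 323 and 307 correlated at 0.11 over probes. The 38 genes, the wider lists and the markers were chosen with earlier results of these data known. Values in every tumor are given for those of the 38 genes with an unadjusted p below 0.05, a log2 difference of at least 1 in size or no overlap between groups. Of the wider lists, up to 3 genes per direction with the smallest p are named with their differences, some with values or ranges. Of the 38 genes 18 had several probes; of their other probes, 21 were well above background on all arrays, and 19 of these had the sign of the brightest probe in the first comparison and 18 in the second. Gene names come from the scanner files, and old names were updated through RefSeq tables. Alternatives were own values from the intensities (normexp with offset 50, or no background correction, then loess), centring, quantile scaling, protocol version, slide, tumor number, a filter on dim probes (3 arrays), moderation, the mean of all probes, and leaving out each array. The fitting was tested on simulated data.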

Additional observations from a re-analysis of the deposited data

Results flagged for a closer look

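Single tumors stood far from the other 4 of their group for 3 of the 38 genes. Hk1 was at -0.76 in 307 lung, with the other sarcomatoid tumors between -1.41 and -1.27 (the gap to the nearest was 0.792 of the range), and at 0.11 in tumor 85, with the other adenocarcinomas between -1.03 and -0.76 (0.763). Pfkm was at 0.98 in tumor 105, with the other adenocarcinomas between -1.06 and -0.56 (0.755). Ankrd37 was at 0.25 in tumor 17, with the other adenocarcinomas between -1.46 and -0.97 (0.717). The limit for a group of 5 is 0.71; 76 groups were searched, 4 values passed it and chance alone gives about 3.8.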

How the results depend on the processing

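No gene of the 38 reached an adjusted p below 0.05 under any of the 22 settings of the first comparison or the 20 of the lung comparison, and no gene with an unadjusted p below 0.05 changed sign in any of them. In the first comparison, genes lower at an unadjusted p below 0.05 (5) became 8 with own values from normexp and loess, 9 without background correction, 8 with quantile scaling and 3 with mammary tumors only; leaving out each array gave 3 (without 594 or 85) to 8 (without 470). Genes higher (1) became 0 with own values, without background correction, with the protocol version as a term, with trend and robust moderation, with 1 value per tumor number and with mammary tumors only, and 0 to 2 without each array. Genes below 0 numbered 26 to 30 throughout. Probes of the array past the adjusted threshold (0) became 2 with 1 value per tumor number and 0 to 618 without each array, 618 being without tumor 470.

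In the lung comparison, genes lower (4) became 6 with tumor number as a replicate block, which leaves 2 pairs, and 6 with the protocol version; without each array they were 2 (without 307) to 4. Genes higher (1) became 0 with quantile scaling, the protocol version and trend and robust moderation, and 0 to 2 without each array. Genes below 0 (22) were 14 (without 307 lung) to 24 without each array. Probes past the adjusted threshold (10) became 2 with own values, 3 without background correction, 6 with centring, 22 with quantile scaling, 0 with the protocol version, 0 with trend and robust moderation, 2 with the mean of all probes, 0 with the replicate block and 0 to 84 without each array (84 without 470). The causes were not tested. Replicate numbers were given in deposit order and pair no sarcomatoid tumor with an adenocarcinoma, so the first comparison has no paired fit. Epas1 ran from -1.72 to -0.53, the latter with the mean of both probes, and Eno2 from 0.63 to 2.06.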
